A study of Homo sapiens with 4 samples.

Results

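The IGF-binding proteins are the 7 human genes IGFBP1 to IGFBP7, taken from the 61228 gene symbols of the count tables by exact match of the symbol, and all 7 were found. H1792 is an established human lung cancer line, labelled wild type, that was grown in medium with 10% fetal bovine serum. There were 2 groups of 2 libraries each, and cells of both were kept for 96 h with either the solvent DMSO or ACBI1, at a dose the labels write as 1 mM. ACBI1 is a PROTAC that recruits the VHL ubiquitin ligase to SMARCA2 and SMARCA4, the ATPases of SWI/SNF chromatin remodelling complexes, and to the PBRM1 subunit. The comparison rests on 1 cell line, 1 compound and 1 time point, with no inactive control compound, and the labels do not say whether replicates came from separate cultures, so p-values measure only the spread between these libraries.

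IGF-binding proteins are secreted. IGFBP1 to IGFBP6 hold the growth factors IGF1 and IGF2 with high affinity, which keeps them from the receptor IGF1R or carries them to it, while IGFBP7 binds IGFs weakly and acts mostly outside the IGF system. Proteases such as PAPPA cut the binding proteins and free the IGF, and stanniocalcins (STC1, STC2) block PAPPA. Several IGFBPs also act on cells without IGF, through integrins, heparan sulfate or matrix proteins.

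With ACBI1, transcripts of IGFBP1, IGFBP4, IGFBP6 and IGFBP7 fell, those of IGFBP2 appeared at a very low level, and those of IGFBP3 and IGFBP5 did not pass the test. IGFBP1 and IGFBP3 face each other tail to tail on chromosome 7 with a gap of 18.6 kb, and IGFBP2 and IGFBP5 do so on chromosome 2 with a gap of 7.67 kb. IGFBP4 is on chromosome 17, IGFBP6 on chromosome 12 and IGFBP7 on chromosome 4. The upstream 250 bases of 3 members are shown because these members differ most plainly in their behaviour: IGFBP4 fell in both ACBI1 libraries, IGFBP5 was abundant in 1 DMSO library only, and its neighbour IGFBP2 was read only with ACBI1. The RefSeq table holds 3 windows for IGFBP2, and the one shown lies at the start of its principal GENCODE 29 transcript, whose exon covers the window's last 25 bases. Sequences are from RefSeq on GRCh38.p14, 5′ to 3′ on the gene's strand up to the base before an annotated start, with capitals for the TATA box core TATAAA, the NF-Y box CCAAT, the GC box GGGCGG of SP1-type factors or the AP-1 site TGANTCA, each searched on both strands.
IGFBP4, chr17:40443200-40443449, plus strand: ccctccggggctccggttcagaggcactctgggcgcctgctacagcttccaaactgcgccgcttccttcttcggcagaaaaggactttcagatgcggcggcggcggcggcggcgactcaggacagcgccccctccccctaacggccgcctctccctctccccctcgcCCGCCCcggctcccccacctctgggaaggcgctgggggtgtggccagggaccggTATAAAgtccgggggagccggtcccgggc
IGFBP5, chr2:216695550-216695799, minus strand: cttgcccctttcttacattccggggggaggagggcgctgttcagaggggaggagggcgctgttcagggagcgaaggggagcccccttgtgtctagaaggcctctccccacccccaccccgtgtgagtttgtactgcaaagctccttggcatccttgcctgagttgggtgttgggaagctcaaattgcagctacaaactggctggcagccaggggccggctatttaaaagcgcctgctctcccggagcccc
IGFBP2, chr2:216633170-216633419, plus strand: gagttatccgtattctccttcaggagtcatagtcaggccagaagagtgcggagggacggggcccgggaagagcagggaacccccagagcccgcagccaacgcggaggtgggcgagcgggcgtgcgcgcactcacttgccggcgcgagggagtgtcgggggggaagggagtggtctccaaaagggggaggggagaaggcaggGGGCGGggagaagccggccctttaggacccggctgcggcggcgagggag

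These letters place TATAAA in the IGFBP4 window and GGGCGG in the IGFBP4 window and the IGFBP2 window shown. The IGFBP5 window holds none of the 4 motifs. Only exact matches were searched, so a variant TATA box there would not be marked. Over 34943 promoter windows of that length, 10.8% held TATAAA and 32.0% held CCAAT, while 42.5% held GGGCGG and 6.59% held TGANTCA. The 3 windows differed in CpG content, with 24 CpG dinucleotides for IGFBP4, 22 for IGFBP2 and 8 for IGFBP5, against a median of 11 over all windows. The other IGFBP2 windows had 7 CpG dinucleotides with a GGGCGG, at the RefSeq gene start, and 4 with a CCAAT and no GGGCGG, at an internal start, so IGFBP2 and IGFBP5 differ in this way only for the window shown. Windows for IGFBP3 and IGFBP6 also held GGGCGG, and no TGANTCA was found in any window of the 5 members that matched the RefSeq table. Of the 250 bases of the IGFBP6 window, 231 lie in GENCODE 29 exons, so by that annotation most of it is transcribed.

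Counts in genes ranged from 64281850 to 86010100 per library, and the IGFBP family held 6662 and 8481 of them with DMSO (replicates 1 and 2) against 2440 and 1653 with ACBI1. Of the degrader's targets, 0 of 3 were called by edgeR at the level of transcripts, beside 17.4% of all genes. The log2 changes were 0.70 for SMARCA4, -0.40 for SMARCA2 and 0.10 for PBRM1, and their proteins were not analysed here. SMARCA4 alone passed at an unadjusted threshold of 0.05 in edgeR (adjusted p 0.0583), and both DESeq2 and limma-voom called it higher (adjusted p 0.0149 and 0.0491). EdgeR also called it with upper-quartile scaling, library size only, no filter or a stricter filter (adjusted p 0.00834 to 0.0485). It was not called with DESeq2 size factors in edgeR (adjusted p 0.0567). Leaving out each library gave log2 changes of 0.51 to 0.91, and SMARCA4 was called only without DMSO replicate 1. The keratin genes KRT7, KRT8 and KRT18 of epithelial cells were present in every library. The 6 epithelial markers summed to 982 to 1035 CPM with DMSO and 202 to 323 CPM with ACBI1, mostly from these keratins. Of the 5 tested, 4 were called lower, all of them keratins, beside 10.6% of all genes. EPCAM was at 5.38 and 2.78 CPM with DMSO and 15.6 and 4.84 CPM with ACBI1 and was not called. CDH1 reached at most 0.222 CPM and was not tested. CPM are counts per 1000000 gene counts after TMM scaling. The lung adenocarcinoma markers NKX2-1 and SFTPA1 had 0 counts in each library, and the summed 6 such markers reached at most 0.393 CPM. Blood cell markers summed to at most 0.723 CPM, with CD3E and HBB at 0 counts. Of the 3 endothelial markers, PECAM1 was at 12.2 and 48.1 CPM with DMSO and 0.0112 and 0.0458 CPM with ACBI1. VWF was at most 0.320 CPM and CDH5 at most 0.0556 CPM. The 2 tested, PECAM1 and VWF, were called lower, beside 10.6% of all genes. Both passed the filter on low counts only through the DMSO libraries, so these falls were favoured in advance. The part of these marker changes in the results below was not tested.

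Summed over the family, IGFBP transcripts were at 81.8 and 118 CPM in the DMSO libraries and at 27.3 and 25.2 CPM in the ACBI1 libraries. The groups did not overlap, and group means were 99.9 ± 25.5 CPM for DMSO (SD, n = 2) against 26.2 ± 1.45 CPM for ACBI1 (SD, n = 2). In bulk RNA, fewer cells of a kind and less RNA per cell cannot be told apart. Of the 7 members, 4 were called lower at an edgeR adjusted p under 0.05, against 10.6% of the 19159 genes tested, and 1 was called higher, against 6.75%. Calls in either direction made up 17.4% of all genes. The groups did not overlap for 6 members, against 63.2% of all genes, and the exception was IGFBP3. The median log2 change of the 7 was -1.87, beside 0.01 for all genes tested. All 7 passed the filter on low counts, but IGFBP1 and IGFBP5 did so only through the DMSO libraries and IGFBP2 only through the ACBI1 libraries, so these 3 had to differ and the counts of called members are a description.

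**Figure D1:**
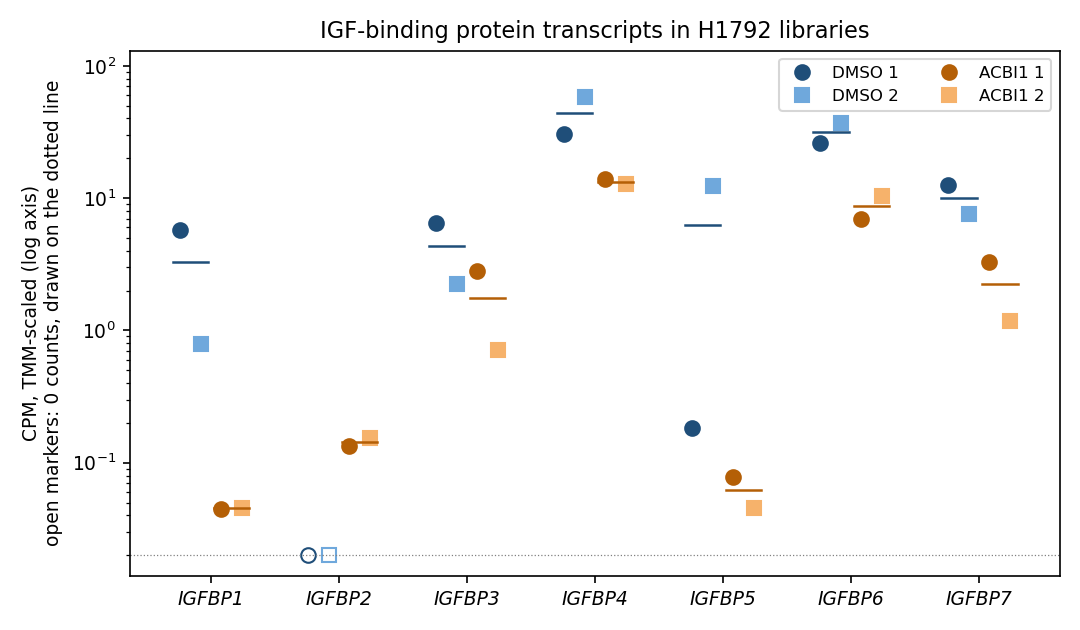
Level of each IGFBP transcript in the 4 libraries, in TMM-scaled CPM on a log axis, with a short line at each group's mean; open markers on the dotted line stand for 0 counts. IGFBP4 and IGFBP6 have both DMSO markers above both ACBI1 markers, and the DMSO markers of IGFBP5 lie farthest apart, at 0.184 and 12.3 CPM.

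IGFBP4 and IGFBP6 had the highest levels per length, as given below. IGFBP4, which mostly restrains IGF action and is the classical substrate of PAPPA, was at 30.7 and 57.9 CPM in the DMSO libraries, given here and below as replicate 1 and then 2, and at 13.9 and 12.8 CPM in the ACBI1 libraries. Both ACBI1 libraries lay below both DMSO libraries, which themselves differed by 1.89-fold. The IGFBP4 log2 change was -1.73 (SE 0.31), a 3.32-fold fall, with an edgeR adjusted p of 0.0181. IGFBP6, the member with a marked preference for IGF2 over IGF1, was at 26.1 and 37.1 CPM with DMSO and at 7.004 and 10.3 CPM with ACBI1. These groups were also separate, and replicate 2 was the higher library in each. IGFBP6 had a log2 change of -1.87 (SE 0.28), a 3.65-fold fall, with the smallest adjusted p of the family in edgeR, 0.0109. Both genes stayed called whichever library was left out, with log2 changes of -2.11 to -1.21 for IGFBP4 and -2.18 to -1.60 for IGFBP6.

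IGFBP7, a matrix-associated protein also known as a tumour-restraining, senescence-linked factor, was at 12.6 and 7.60 CPM with DMSO and at 3.28 and 1.17 CPM with ACBI1. The groups did not overlap, and replicate 1 was the higher library in both. Its log2 change was -2.17 (SE 0.54) with an edgeR adjusted p of 0.0421, the weakest of the called falls. Without ACBI1 replicate 1 the IGFBP7 log2 change was -3.09 (adjusted p 0.0154), while without ACBI1 replicate 2 the IGFBP7 log2 change was -1.63 and was not called (adjusted p 0.0679, in a range of 0.00381 to 0.0679 over the 4 omissions). Other genes, IGFBP7-AS1 and POLR2B, cover 18.9% of the exonic length of IGFBP7, and the strand setting of the counting is not given in the sources used here, so reads of sense and antisense transcripts may be mixed or dropped there. The antisense gene IGFBP7-AS1 had 26 and 16 counts with DMSO and 4 and 1 with ACBI1, a log2 change of -3.04 (adjusted p 0.0324) whose call was lost without DMSO replicate 1 or either ACBI1 library (adjusted p 0.0901 to 0.155). IGFBP7-AS1 passed the filter on low counts only through the DMSO libraries, so its fall was favoured in advance. POLR2B, an RNA polymerase II subunit on the other side, had a log2 change of -0.13 (adjusted p 0.632).

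IGFBP1, a fast-responding binding protein known as a target of FOXO factors, nearly vanished with ACBI1. It had 470 and 57 counts with DMSO, or 5.77 and 0.792 CPM, and 4 and 3 counts with ACBI1, or 0.0447 and 0.0458 CPM. The DMSO libraries differed by 7.28-fold, yet the lower of them was still far above both ACBI1 libraries. Counts per library size were 76.1 times higher with DMSO, with a 95% exact counting interval of 36.7 to 190 that covers counting error only. The fitted IGFBP1 log2 change was -6.14 (SE 1.15) with an edgeR adjusted p of 0.02. It was -4.08 without DMSO replicate 1 and -6.95 without DMSO replicate 2, and without ACBI1 replicate 1 the call was lost (log2 change -6.11, adjusted p 0.0555, in a range of 3.95e-06 to 0.0555 over the 4 omissions). Limma-voom did not call it either (log2 change -5.42, adjusted p 0.0543). The smallest adjusted p of 6 alternatives, 4.39e-25, came only from edgeR without a filter, and the next was 4.35e-09 with DESeq2.

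IGFBP3, the main IGF carrier of blood and a known growth-inhibitory factor, was at 6.44 and 2.24 CPM with DMSO and at 2.79 and 0.717 CPM with ACBI1. Its groups overlapped, since ACBI1 replicate 1 lay above DMSO replicate 2, and replicate 1 was the higher library in both groups. The IGFBP3 log2 change of -1.30 (SE 0.75) was not called by edgeR (adjusted p 0.275), and it was -2.59 when ACBI1 replicate 1 was left out but -0.34 when DMSO replicate 1 was. The difference between its change and that of its neighbour IGFBP1 was not tested.

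IGFBP5, a heparin- and matrix-binding member, was abundant in only 1 of the 4 libraries. It had 15 counts (0.184 CPM) in DMSO replicate 1, 883 counts (12.3 CPM) in DMSO replicate 2, and 7 and 3 counts (0.0782 and 0.0458 CPM) in the ACBI1 libraries. The DMSO libraries were 66.6-fold apart. With 0.02 CPM added to each level, 1 of 19159 genes tested, RANBP3L (8 and 1887 counts), had a larger ratio between them. This comparison was singled out after the values were seen. The fitted IGFBP5 log2 change of -6.57 (SE 1.92) was not called by edgeR (adjusted p 0.0653). Without DMSO replicate 2 it was -1.52 (adjusted p 0.373), and without DMSO replicate 1 it was -7.55 and called (adjusted p 2.97e-07), so its size rests on DMSO replicate 2. DESeq2 also called it (log2 change -6.65, adjusted p 0.00854). Of 6 alternatives, edgeR without a filter gave an adjusted p of 9.38e-34, far below the rest, which ran from 0.00854 to 0.300. That extreme value stands alone and still rests on DMSO replicate 2.

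IGFBP2, an integrin-binding member with an RGD motif that is often abundant in tumours, had 0 counts in both DMSO libraries and 12 and 10 counts in ACBI1 replicates 1 and 2. The ACBI1 libraries were at 0.134 and 0.153 CPM, and the 0 counts allow up to 0.0196 CPM with DMSO, by a floor of 3 counts over the group. Against that floor IGFBP2 was 7.25-fold higher with ACBI1, a figure that leaves out the counting error of the ACBI1 counts. The 95% exact counting interval of the ratio of DMSO to ACBI1 reached from 0 to 0.185, which allows a smaller rise. It was called higher by edgeR (adjusted p 0.0272), with a fitted log2 change of 6.48 that depends on the prior count and is no bound. The call was lost without DMSO replicate 1 (adjusted p 0.0523) and without DMSO replicate 2 (adjusted p 0.0612), and without either ACBI1 library the gene did not pass the filter. Even with ACBI1, IGFBP2 stayed at 0.0301 ± 0.00274 CPM per kb of exon (SD, n = 2), far below IGFBP4 and IGFBP6.

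Levels of different members were set in order per kb of exonic length in GENCODE release 29. With DMSO the order was IGFBP6 at 23.5 ± 5.74 CPM per kb (SD, n = 2), IGFBP4 at 20.1 ± 8.74, IGFBP7 at 5.23 ± 1.82, IGFBP1 at 1.99 ± 2.13, IGFBP5 at 0.967 ± 1.33, IGFBP3 at 0.949 ± 0.649 and IGFBP2 with 0 counts. IGFBP6 and IGFBP4 overlapped between libraries, and so did IGFBP1, IGFBP5 and IGFBP3, whereas IGFBP7 lay apart from both sets. With ACBI1 the order began with IGFBP6 at 6.44 ± 1.75 and IGFBP4 at 6.06 ± 0.375 CPM per kb, which overlapped again, followed by IGFBP7 at 1.16 ± 0.773 and IGFBP3 at 0.384 ± 0.321, which also overlapped. IGFBP2, IGFBP1 and IGFBP5 were at 0.0301, 0.0274 and 0.00962 CPM per kb, levels that rest on 3 to 12 counts a library.

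**Figure D2:**
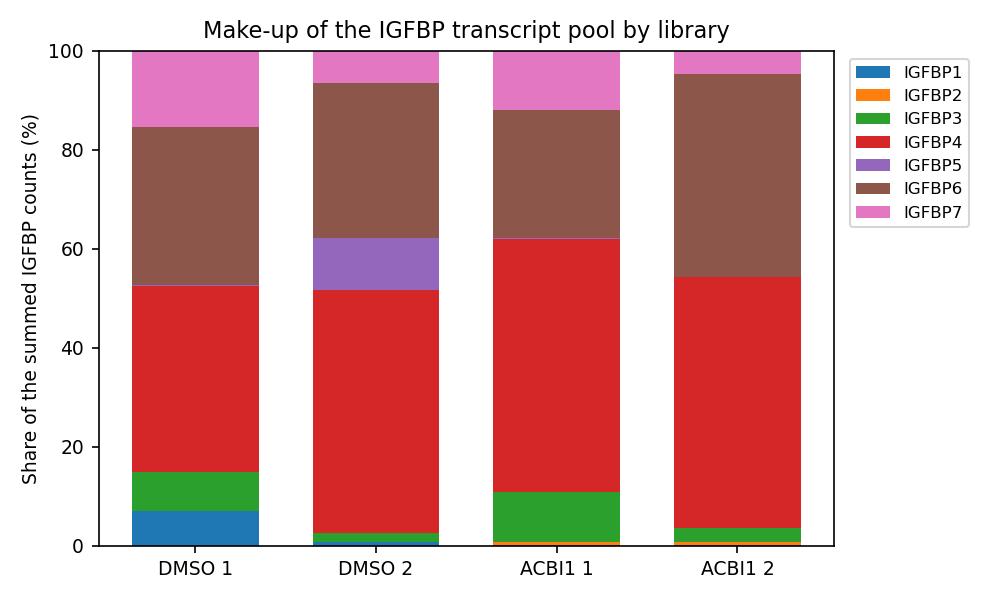
Share of each member in the summed IGFBP counts of each library, in percent of counts with no correction for length, stacked to 100%. IGFBP4 and IGFBP6 together hold 69.5% and 80.6% in the DMSO libraries and 76.8% and 91.5% in the ACBI1 libraries, and the IGFBP5 band is visible only in DMSO replicate 2.

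The make-up of the family's transcript pool is given by each member's share of the summed counts, in which a longer transcript weighs more. IGFBP4 held 37.5% and 49.1% of the family's counts with DMSO against 51.1% and 50.6% with ACBI1, and IGFBP6 held 32.0% and 31.4% against 25.7% and 41.0%. The 95% exact intervals of these shares reached from 36.4% to 38.7% for IGFBP4 in DMSO replicate 1 and from 38.6% to 43.4% for IGFBP6 in ACBI1 replicate 2, and cover counting error only. For IGFBP6 the groups overlapped, and for IGFBP4 both ACBI1 libraries lay slightly above both DMSO libraries. Per kb of exon the IGFBP4 shares were 31.1% and 43.4% with DMSO and 45.5% and 40.5% with ACBI1, and these groups overlapped. IGFBP1 held 7.05% and 0.672% with DMSO against 0.164% and 0.181% with ACBI1. IGFBP5 held 10.4% in DMSO replicate 2 and at most 0.287% in the other libraries. With 2 libraries a group the smallest exact two-sided permutation p for such a share is 0.333, so no test was run.

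The ligands and receptors of the IGF system were read next. IGF2, the fetal-type growth factor that IGFBP6 prefers, had 28 and 57 counts with DMSO and 948 and 291 with ACBI1, or 0.344 and 0.792 CPM against 10.6 and 4.44 CPM. Both ACBI1 libraries were far above both DMSO libraries, and IGF2 rose with a log2 change of 3.73 (SE 0.61, edgeR adjusted p 0.014). It was 2.98 without ACBI1 replicate 1 and 4.44 without DMSO replicate 2, and called in both (adjusted p 0.0242 and 0.000434). Other annotated genes, among them INS-IGF2 and IGF2-AS, cover 75.0% of its exonic length, so many of its reads may have been counted to no gene and its level is uncertain. INS-IGF2 had 0 counts in each library and IGF2-AS 0 and 0 against 7 and 3. For IGF1 only 2 counts were read, both from ACBI1 replicate 1, and for INS none.

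IGF1R, the signalling receptor, was at 94.5 and 112 CPM with DMSO and 120 and 159 CPM with ACBI1, a log2 change of 0.43 (edgeR adjusted p 0.190). IGF2R, which takes up and degrades IGF2, was at 564 and 590 CPM with DMSO and 267 and 382 CPM with ACBI1, without overlap. Its log2 change of -0.83 (SE 0.22) missed the threshold in edgeR (adjusted p 0.0505), also under other scalings (adjusted p 0.0503 to 0.0564). DESeq2 and limma-voom called it lower (adjusted p 0.00827 and 0.0421), as did edgeR with a 5 CPM filter or none (adjusted p 0.0434 and 0.000674). Leaving out each library gave log2 changes of -1.12 to -0.59, and IGF2R was called only without DMSO replicate 1. The insulin receptor gene INSR had a log2 change of -0.17 (adjusted p 0.473). Of 13 genes for ligands, receptors and adaptors, 9 were tested, 2 were called higher, beside 6.75% of all genes, and 0 lower, beside 10.6%, and the median log2 change was -0.12. Besides IGF2, the other rise was that of GRB14, an adaptor that inhibits insulin receptor signalling, from 3.60 and 3.03 CPM with DMSO to 19.05 and 15.01 CPM with ACBI1 (log2 change 2.36, adjusted p 0.00479). For the count of 0 lower genes, 3 were lower at an unadjusted p under 0.05, and DESeq2 called 3 lower and limma-voom 1.

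Transcripts for proteases that cut IGFBPs, for the inhibitors of these proteases and for related partners fell. Of 11 in the list 10 were tested, and all 10 tested genes were called lower by edgeR, beside 10.6% of all genes. Their median log2 change was -2.75. ADAM28 (5 and 2 counts with ACBI1) passed the filter on low counts only through the DMSO libraries. PAPPA2 (64 and 8 counts with ACBI1) also needed a DMSO library to pass. Falls of these genes were favoured in advance, so the count of called genes is a description. Without ACBI1 replicate 1 there were 7 called lower. PAPPA, a protease of IGFBP4 and IGFBP5, was at 406 and 314 CPM with DMSO and 86.5 and 86.9 CPM with ACBI1 (log2 change -2.05, adjusted p 0.00365), with 21.2% of its exonic length shared with PAPPA-AS1. PAPPA2, which cuts IGFBP3 and IGFBP5, fell from 16.1 and 5.73 CPM to 0.715 and 0.122 CPM (log2 change -4.66, adjusted p 0.0204), which became -6.46 on leaving out ACBI1 replicate 1 and -3.73 on leaving out DMSO replicate 1. STC1, an inhibitor of PAPPA, fell from 125 and 152 CPM to 3.98 and 18.7 CPM (log2 change -3.62, adjusted p 0.0212), which became -5.13 when ACBI1 replicate 2 was dropped and -2.88 when ACBI1 replicate 1 was. The list thus held falls of the proteases and of the PAPPA inhibitors STC1 and STC2 together. PLAT, the tissue plasminogen activator, fell from 56.2 and 659 CPM to 3.56 and 5.98 CPM (log2 change -6.23, adjusted p 0.0220). This was -3.57 without DMSO replicate 2 and -7.11 without DMSO replicate 1, and its DMSO libraries differed as those of IGFBP5 did, with replicate 2 high. ADAM28, able to cut IGFBP3, had a log2 change of -3.64 (adjusted p 0.0119) at no more than 0.653 CPM. The other 5 called genes, which like PAPPA were named after their values were seen, were STC2, ADAM12, HTRA1, C1S and PLAU. They had log2 changes from -3.44 for C1S, or -4.09 without ACBI1 replicate 1, to -1.11 for STC2. PLAU shares 31.1% of its exonic length with C10orf55. The 3 calls lost without ACBI1 replicate 1 were those of STC2, HTRA1 and PLAT (adjusted p 0.0736, 0.0679 and 0.0566). IGFALS, the partner that forms the circulating complex with IGFBP3, had at most 4 counts in a library and was not tested.

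**Figure D3:**
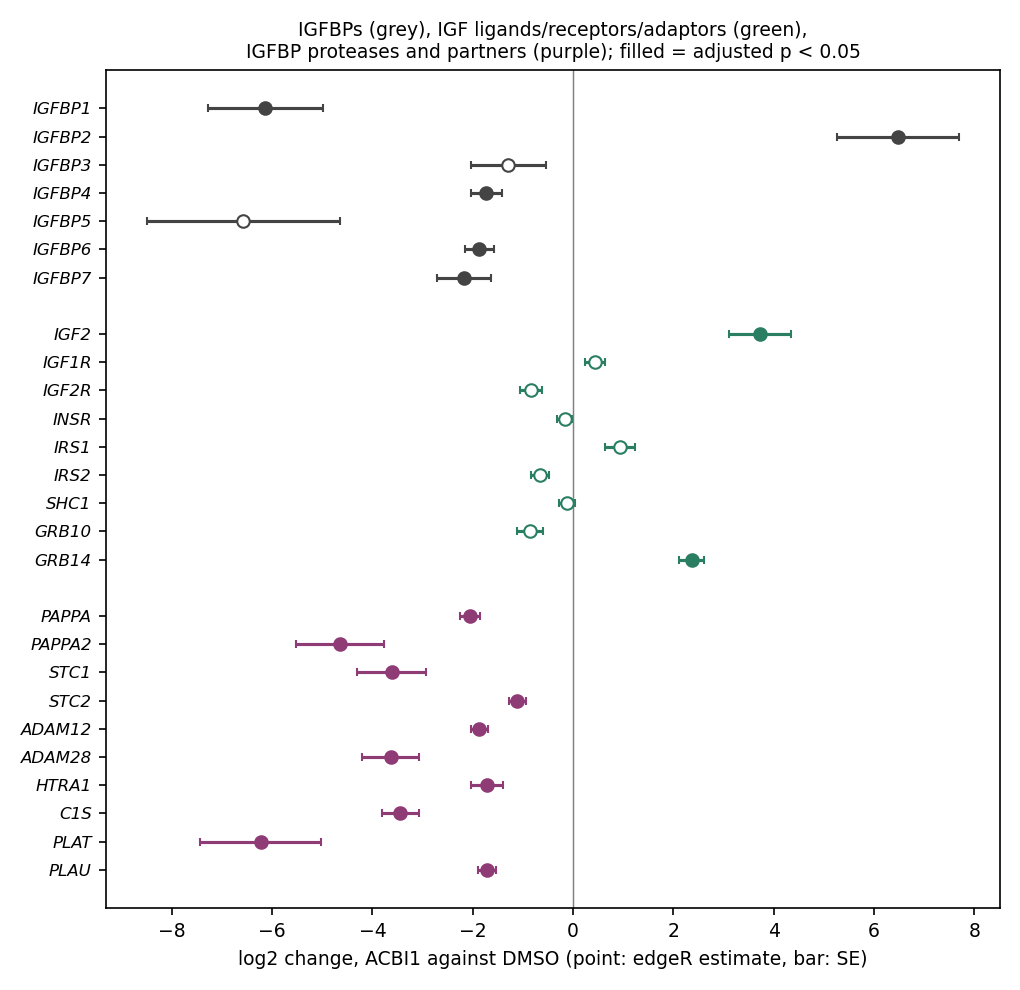
Log2 change with ACBI1 against DMSO for the tested genes of the IGFBP family, of IGF ligands, receptors and adaptors, and of IGFBP proteases and partners, with the edgeR estimate as a point, its SE as a bar and filled points for an adjusted p under 0.05. Every one of the 10 protease and partner genes lies below 0, while IGF2 and GRB14 lie above it.

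Among 12 genes for proteins with a related IGFBP-type domain, 9 were tested and 1 was called, beside 17.4% of all genes. CCN4, a matricellular protein, was lower with a log2 change of -3.71 (edgeR adjusted p 0.0222), at no more than 0.487 CPM, and it was not called when DMSO replicate 2 or either ACBI1 library was left out. CCN4 passed the filter on low counts only through the DMSO libraries, so its fall was favoured in advance. The median log2 change of the 9 was -1.14. At an unadjusted p under 0.05 in edgeR, 5 of the 9 were lower and 1 was higher. DESeq2 called 3 lower and 1 higher, and limma-voom called 1 lower. The 3 IGF2 mRNA-binding protein genes, which share a similar name but belong to another family, had log2 changes from 0.02 to 0.54, and their edgeR adjusted p-values were 0.0632, 0.0788 and 0.961 for IGF2BP1, IGF2BP2 and IGF2BP3. Of 13 PI3K, AKT and FOXO genes, which act below IGF1R, all were tested and 2 were called lower, beside 10.6% of all genes, with a median log2 change of -0.34. FOXO1, a transcription factor known to drive IGFBP1, fell from 16.0 and 17.2 CPM to 8.46 and 9.29 CPM (log2 change -0.90, adjusted p 0.0321). FOXO4 fell from 13.6 and 19.7 CPM to 5.79 and 8.16 CPM (log2 change -1.26, adjusted p 0.0351). Neither FOXO call held without DMSO replicate 2 (adjusted p 0.0868 and 0.0793) or without ACBI1 replicate 1 (adjusted p 0.177 and 0.152), and that of FOXO1 was also lost without ACBI1 replicate 2 (adjusted p 0.107).

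The 3 nearest protein-coding genes on each side of every member, 30 genes without the members themselves, included 21 that were tested, of which 2 were called higher, beside 6.75% of all genes, and 2 lower by edgeR, beside 10.6%, with a median log2 change of -0.01. Both falls were of tensin genes, for actin-binding adaptors of focal adhesions. TNS1 (32 and 8 counts with ACBI1) needed a DMSO library to pass the filter on low counts, so its fall was favoured in advance. TNS1, the second gene beyond IGFBP5 on chromosome 2 at 1104 kb, with TNP1 between them, was at 2.74 and 1.74 CPM with DMSO and 0.357 and 0.122 CPM with ACBI1 (log2 change -3.18, adjusted p 0.0189, and -4.17 without ACBI1 replicate 1). TNS2, the second gene before IGFBP6 on chromosome 12 at 33.3 kb, was at 13.1 and 30.6 CPM with DMSO and 5.47 and 5.08 CPM with ACBI1 (log2 change -2.05, adjusted p 0.0243). Its log2 change was -1.32 without DMSO replicate 2 (adjusted p 0.018), and the call was lost without ACBI1 replicate 1 or 2 (adjusted p 0.0637 and 0.0578). SPRYD3, which lies between TNS2 and IGFBP6, was not called (log2 change 0.06, adjusted p 0.913). TNS3, TNS4 and SPRYD3 were named after their values were seen. TNS3, the next gene beyond IGFBP3, was not called (log2 change 0.04, adjusted p 0.901). TNS4, beside IGFBP4, had 1 count in DMSO replicate 1 and 0 in the others. The called rises were MARCHF4, on the IGFBP2 side, with a log2 change of 1.74 (adjusted p 0.0364), and ADCY1, on the IGFBP1 side, with one of 0.93 (adjusted p 0.0319). Neither rise was called without ACBI1 replicate 1 (adjusted p 0.083 and 0.147), ADCY1 was also not called without DMSO replicate 2 or ACBI1 replicate 2 (adjusted p 0.0813 and 0.0678), and MARCHF4 reached 2.51 without DMSO replicate 2. IGFBP2 and IGFBP5, 7.67 kb apart, had fitted log2 changes of 6.48 and -6.57, of which only the first was called.

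**Figure D4:**
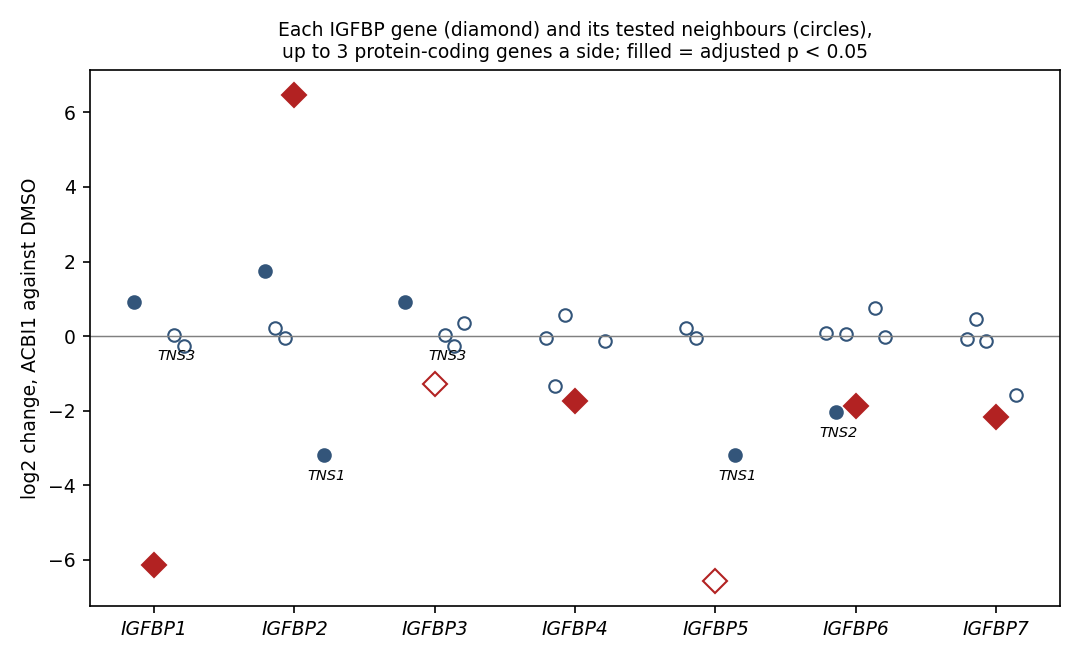
Log2 change with ACBI1 against DMSO of each IGFBP gene (diamond) and of its tested neighbours (circles), with at most 3 protein-coding genes on each side, filled for an adjusted p under 0.05 and with tensin genes named. Most circles lie near 0, with a median of -0.01, while 6 of the 7 diamonds lie below 0, as 49.6% of all genes do. The diamond of IGFBP2 is a fitted value from libraries with 0 counts.

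For each called member, the genes with the most similar pattern were those at the smallest root-mean-square distance of centred log2 CPM over the 4 libraries, among 11157 tested genes that averaged 5 CPM or more. For IGFBP4 these were ATP1B1, ARMC9 and RGS9, at 0.0733 to 0.0949 log2 units. For IGFBP6 they were CRELD2, STAT2 and TRBC2, at 0.0690 to 0.0786. SMOX, TNC and ATP2A3 came nearest to IGFBP7, at 0.156 to 0.167. UNC5B, KLHDC7B and IGFN1 came nearest to IGFBP1 but at larger distances, 0.426 to 0.564. For IGFBP2, E2F2, MATK and TEX15 were nearest, at 0.0478 to 0.178, a distance that depends on the 0.02 CPM added before logs. With 4 libraries in 2 groups, such likeness reflects a similar change and a similar spread within groups.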

How the data were processed

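RNA-seq was carried out on 2 DMSO and 2 ACBI1 libraries of H1792 cells. The deposited files hold raw counts per gene symbol in the layout of htseq-count; TopHat2 2.1.1, HTSeq 0.11.0 and hg38 are listed, per the submitters' processing notes, while annotation release and strand setting are not given in the sources used here. The 5 summary lines (13.9% to 15.4% of reads listed) were kept out.

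Genes were filtered with filterByExpr (minimum count 10, total 15), scaled by TMM and tested with the quasi-likelihood test of edgeR 4.0.16 in R 4.3.3 on treatment alone, with Benjamini-Hochberg adjustment over 19159 genes and calls at 0.05. The SE is the log2 change divided by the square root of F. On simulated counts with 200 of 19159 genes changed, edgeR recovered 19.0%, 81.7% and 96.7% of log2 changes of 1, 2 and 4, with 6 false calls. The simulation gave every gene the same dispersion and had no effect of replicate number. Spread between the real libraries varied by gene, so these rates need not hold for these data. Gene lengths came from GENCODE 29, neighbours and promoters from RefSeq, both on GRCh38. Replicates of DMSO and of ACBI1 differed by more than sampling noise (chi-square per degree of freedom 160 and 104).

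Named are all members, the IGF ligands and receptors, at most 4 called genes with the largest change per list (6 further protease-list genes were named after their values were seen), called neighbours, and the 3 genes nearest in pattern to a called member. Members and lists were chosen with earlier results of these data known. Alternatives covered scaling, filters, a replicate block, DESeq2 1.42.0, limma-voom (limma 3.58.1), a threshold of 0.01 and leaving out each library, where the lone library is assumed to vary like the other group.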

Additional observations from a re-analysis of the deposited data

How the results depend on the processing

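IGFBP4 and IGFBP6 were called lower under each alternative but the threshold of 0.01, under which no member was called (0 higher, 0 lower) and the adjusted p of IGFBP1 (log2 change -6.14), IGFBP2 (6.48), IGFBP4 (-1.73), IGFBP6 (-1.87) and IGFBP7 (-2.17) no longer passed. Over all genes that threshold left 783 calls, 172 higher and 611 lower. Without a filter 5518 genes were called, 2202 higher and 3316 lower, and IGFBP3 (-1.31) and IGFBP5 (-6.57) were called too. Requiring a mean of 5 CPM left 3 members to test and 0 called higher. DESeq2 called IGFBP5 (-6.65), and limma-voom did not call IGFBP1 (-5.42); the causes were not tested.

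With the replicate block, 7909 genes were called, 3708 higher and 4201 lower. IGFBP3 (-1.40, adjusted p 0.00176) and IGFBP5 (-5.66) were called lower, as were IGF2R (-0.85, adjusted p 0.00124) and SMARCA2 (-0.40, adjusted p 0.0394). IGF1R (0.42, adjusted p 0.022) and SMARCA4 (0.71, adjusted p 0.00248) were called higher. The labels say nothing of a shared batch, and over genes the deviations of same-numbered libraries correlated at 0.518.

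With 1 library left out, calls over all genes ranged from 1379 to 4292, with 415 to 1651 higher and 964 to 2641 lower. Of the members, 0 were called higher in each omission and 3 to 5 lower. The log2 change ranged from -6.95 to -4.08 for IGFBP1, from 6.45 to 6.51 for IGFBP2, from -7.55 to -1.52 for IGFBP5 and from -3.09 to -1.63 for IGFBP7. Per kb of exon, the mean ACBI1 shares of the family were 0.194% (IGFBP1), 0.213% (IGFBP2), 43.0% (IGFBP4), 0.0685% (IGFBP5) and 45.5% (IGFBP6), and that of IGFBP6 with DMSO was 44.4%. With 5 neighbours on each side, 34 were tested. Of these, 5 were lower, beside 10.6% of all genes, and 3 higher, beside 6.75%. The PBRM1 log2 change ran from -0.0414 (without DMSO replicate 2) to 0.247 with 1 library left out, and so changed sign. Depth limits IGFBP1, IGFBP2 and IGFBP5, which rest on 12 or fewer counts in an ACBI1 library.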

Other observations

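IGFBP5 was not called, so its nearest patterns were read only as a description, after its values were seen. PLAT came nearest, at a root-mean-square distance of 1.10 log2 units over the 4 libraries, followed by ARNT2 at 1.24 and LBH at 1.48, and all 3 were higher in DMSO replicate 2 than in DMSO replicate 1. ARNT2, a bHLH-PAS transcription factor, was at 5.64 and 44.8 CPM with DMSO and 2.47 and 1.75 CPM with ACBI1 (log2 change -3.57, edgeR adjusted p 0.0469). Without DMSO replicate 2 this change was -1.42 (adjusted p 0.0467), without DMSO replicate 1 it was -4.40, and without either ACBI1 library it was not called (adjusted p 0.0979 and 0.104). IGFBP3, also not called, was nearest to FBLN7, MT1E and THBD, each with a higher level in replicate 1 than in replicate 2 of both groups. THBD, the thrombin receptor thrombomodulin, was at 647 and 184 CPM with DMSO and 182 and 81.6 CPM with ACBI1 (adjusted p 0.126). H19, the non-coding gene next to IGF2, was read after the rise of IGF2 was seen. It had 5 and 2 counts with DMSO and 20 and 30 with ACBI1 (log2 change 2.85, adjusted p 0.0407). H19 passed the filter on low counts only through the ACBI1 libraries, so its rise was favoured in advance. Its call was lost without DMSO replicate 2 or either ACBI1 library (adjusted p 0.0764 to 0.211).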
